A study of Mus musculus with 10 samples.

Results

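MicroRNAs (miRNAs) that are enriched in neurons were followed in mouse retina. The table names them mmu-miR-128-3p, mmu-miR-138-5p, mmu-miR-129-5p, mmu-miR-137-3p, mmu-miR-218-5p, mmu-miR-135a-5p, mmu-miR-219a-5p and mmu-miR-7a-5p, and the species prefix is dropped from here on. They were chosen by name from a list of neuronal miRNAs that leaves out miR-124, miR-9, miR-132 and miR-212, and all 8 were found among the 1061 mature miRNAs of the deposited table. Small RNA had been sequenced from both retinas of 5 wild-type C57BL/6J mice, numbered 61, 64, 65, 66 and 68, which gave 5 left and 5 right libraries at postnatal day 34. Every mouse had carried a goggle with a -20 D lens over 1 eye for 10 days from postnatal day 24, a procedure that induces myopia, and the fellow eye had no lens. Each label names the mouse and the eye. Which eye wore the lens is not among them, and the contrast is therefore right against left retina of the same mouse, with no side taken as treated.

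A miRNA is cut from a hairpin precursor and guides an Argonaute protein to mRNAs that pair with its seed, bases 2 to 8 from the 5′ end, which lowers their translation and stability. The hairpin has 2 arms, named 5p and 3p, and usually one of them accumulates. Neuron-enriched miRNAs are known for tuning excitability, dendritic spines and the maturation of neurons, and the retina is a layered neural tissue in which photoreceptors outnumber the other neurons. In RNA from whole retina, fewer cells of a type and less RNA per cell cannot be told apart.

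The mature sequences are shown because they define what each miRNA can pair with. They are RefSeq sequences in GRCm38.p6, with the seed in capitals, at the locus given in the deposited table.
miR-128-3p, chr1:128202404-128202424, plus strand: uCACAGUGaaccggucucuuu
miR-138-5p, chr8:94324312-94324334, plus strand: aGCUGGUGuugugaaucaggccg
miR-129-5p, chr2:94241419-94241439, minus strand: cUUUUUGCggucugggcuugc
miR-137-3p, chr3:118433901-118433923, plus strand: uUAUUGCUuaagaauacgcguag
miR-218-5p, chr5:48223966-48223986, plus strand: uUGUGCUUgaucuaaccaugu
miR-135a-5p, chr9:106154140-106154162, plus strand: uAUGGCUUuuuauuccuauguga
miR-219a-5p, chr2:29845689-29845709, minus strand: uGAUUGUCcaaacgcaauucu
miR-7a-5p, chr7:78888295-78888317, plus strand: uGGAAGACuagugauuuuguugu
The 8 seeds were all different, so that the miRNAs form 8 seed families. Their lengths were 21 to 23 bases and their GC contents 30.4% (miR-135a-5p) to 57.1% (miR-129-5p), around a median of 47.8% for the tested miRNAs with a sequence. With the exception of miR-137-3p, each is encoded by 2 precursor copies, so that there are 15 precursors in all.

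The values were normalised read counts in which a library's values follow almost the same ladder from the highest to the lowest miRNA. Totals lay between 17312269 and 17312436, a value tells mainly how high a miRNA ranked among the others, and the sequencing depth is unknown. Between 162 and 239 miRNAs were listed at 0 in a library. The photoreceptor miRNA miR-182-5p led the libraries, at 9840430 in all 10, while miR-181a-5p was at 3689310 and the photoreceptor miRNA miR-183-5p at 689415. The left library of mouse 68 held the muscle miRNA miR-133a-3p at 1596, against 241 to 359 elsewhere, and the right library of mouse 65 held miR-184-3p of lens and cornea at 22384, against 988 to 2117 elsewhere. The other lens and cornea markers were not raised in that library of mouse 65. There miR-205-5p was at 25.6, against 10.9 to 49.4 elsewhere, and miR-203-3p at 213, against 194 to 228.

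Levels of the neuron-enriched miRNAs fell into 3 steps. miR-138-5p, miR-128-3p and miR-129-5p were at 1535 to 5627 normalised reads, miR-218-5p and miR-135a-5p at 153 to 428, and miR-7a-5p, miR-137-3p and miR-219a-5p at 9.90 to 96.2. Together the 8 took 0.0722% of the normalised total, and 94.7% of that came from the 3 most abundant. Every read of a mature miRNA counts a molecule of similar length, but adapter ligation favours some sequences, so the order describes read counts and not molar amounts. The ranges over 10 libraries did not overlap between miR-129-5p and miR-218-5p, or between miR-135a-5p and miR-7a-5p. They overlapped for the other 5 neighbouring pairs. Within a library, miR-138-5p was nevertheless above miR-128-3p in 10 of 10, and miR-137-3p above miR-219a-5p in 10 of 10, whereas miR-128-3p was above miR-129-5p in 6 and miR-7a-5p above miR-137-3p in 3.

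**Figure D1:**
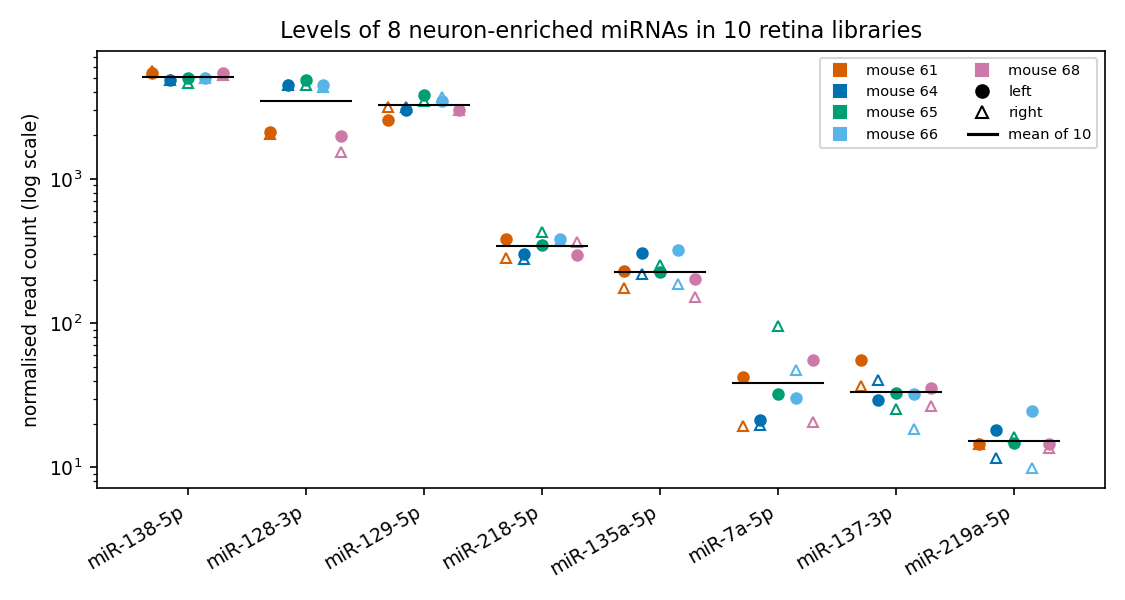
Normalised read count (log scale) of each neuron-enriched miRNA in 10 libraries, coloured by mouse, with filled circles for left, open triangles for right retina and a line at the mean of 10. miR-138-5p was the most abundant with a mean of 5111 and miR-219a-5p the least with 15.3, and the 4 points of mice 61 and 68 lay below the others for miR-128-3p.

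miR-128-3p, a brain-enriched miRNA that limits the excitability of mouse neurons, differed between animals. It was at 2117 (left) and 2039 (right) normalised reads in mouse 61 and at 1990 and 1535 in mouse 68. It was at 4496 in both eyes of mouse 64, at 4871 and 4496 in mouse 65, and at 4496 and 4352 in mouse 66. Mice 61 and 68 were thus low in both eyes, and the highest of their 4 libraries lay below the lowest of the other 6. Its rank among the 1061 miRNAs ran from 63 to 97. The means of the 5 mice spanned 1.42 on the log2 scale, with a residual SD within mice of 0.11.

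The test of the mouse term asks whether animals differ by more than the eyes of an animal do. By limma's F test, miR-128-3p had an adjusted p of 0.0039, the 2nd smallest p of the 484 miRNAs tested (those with a mean of at least 10). At an adjusted p under 0.05, 8 of the 484 (1.65%) differed between mice, and 1 of the 8 neuron-enriched miRNAs. At an unadjusted p under 0.05 it was also 1 of the 8, against 14% of all tested. The call for miR-128-3p remained in each of the 5 fits that omitted a mouse, with adjusted p values by limma between 0.0064 and 0.0264. The number of miRNAs called was 5, 4, 7, 4 and 3 without mouse 61, 64, 65, 66 and 68.

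Other measures were set beside the split of mice 61 and 68 from the rest, whose part in it was not tested. The split was read from the values of miR-128-3p, so its own separation is no finding. Of all 484 tested miRNAs, 34 (7.02%) had ranges in mice 61 and 68 that did not overlap those in mice 64, 65 and 66. Beside miR-128-3p, 1 other member was among them, miR-138-5p, which was at 5242 to 5627 in mice 61 and 68 and at 4642 to 5015 in the others. The numbers of miRNAs at 0 were 162 (left) and 196 (right) in mouse 61 and 167 and 195 in mouse 68, against 189 to 239 on the left and 175 to 237 on the right in the others. Summed per library and averaged over the eyes, 6 of 10 marker lists had their values in mice 61 and 68 both above or both below those of mice 64, 65 and 66. The share expected for lists drawn at random was not computed, and some lists share miRNAs. By library, only the pigment epithelium sum kept mice 61 and 68 apart, at 218022 to 224593 against 209905 to 216580, and the other lists overlapped. That separation came from miR-211-5p, at 14434 to 20983 against 6309 to 12948. In the same list, miR-204-5p was at 203500 in every library. The ranges overlapped for miR-204-3p, at 51.9 to 71.2 against 33.9 to 71.2, and for miR-211-3p, at 36.6 to 89.8 against 44.6 to 88.4. Averaged over the eyes, the endothelial sum was 8609 in mouse 61 and 9018 in mouse 68, against 8151, 7853 and 7689 in mice 64, 65 and 66. In the same order, the pigment epithelium sum was 218499 and 222644 against 215001, 214649 and 211627, and the erythrocyte sum 3097 and 3734 against 3045, 2719 and 2889. Lower in mice 61 and 68 were the sum of the other neuronal miRNAs, at 138197 and 139164 against 140355, 154499 and 147671, and that of the oligodendrocyte list, at 1470 and 1466 against 1574, 1505 and 1529. The neuronal sum came mostly from miR-124-3p (mean 82241) and miR-9-5p (mean 52911). By library these overlapped, at 76000 to 88655 against 81300 to 88655 and at 41158 to 51974 against 49233 to 63868. Not every miRNA of that list was lower, as miR-212-3p was at 575 to 662 against 490 to 575. The oligodendrocyte sum came mostly from miR-338-3p (mean 1343). In the same list, miR-338-5p was at 165 to 184 in mice 61 and 68 and at 106 to 202 in the others. The erythrocyte sum came mostly from miR-486a-5p (mean 3014), while miR-451a was at 39.7 to 71.2 against 24.3 to 58.9. The lens and cornea sum was 2022 in both mice against 2302, 11920 and 2031, and the value of mouse 65 came mostly from miR-184-3p in its right library. The summed muscle markers reached 1742 in mouse 68 on the left, against 279 to 400 in the other libraries. The labels name no library batch, so a batch cannot be told apart from the animal.

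miR-128-3p is made from hairpins in introns of R3hdm1 (chromosome 1) and Arpp21 (chromosome 9). They are shown because the mature miRNA, in capitals, is identical in both, while the other arm differs.
Mir128-1, chr1:128202361-128202430, plus strand: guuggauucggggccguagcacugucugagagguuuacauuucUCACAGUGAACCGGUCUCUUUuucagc
Mir128-2, chr9:112118636-112118711, minus strand: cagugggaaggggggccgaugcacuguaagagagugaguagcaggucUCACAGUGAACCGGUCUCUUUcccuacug
The opposite arms can be set side by side, with capitals at bases that differ or have no partner in an ungapped alignment.
miR-128-1-5p: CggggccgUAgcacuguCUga
miR-128-2-5p: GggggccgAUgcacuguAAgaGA
miR-128-1-5p was at 55.4 to 109 normalised reads, whereas miR-128-2-5p was listed at 0 in 7 of 10 libraries and reached 4.90. miR-128-1-5p did not follow the mature arm. Its mouse means were 80.9, 70.8, 88.7, 64.1 and 80.0 in mice 61, 64, 65, 66 and 68, and the mouse term had an adjusted p of 0.908 by limma. The ratio of miR-128-3p to miR-128-1-5p ranged from 17.1 to 81.2 over the libraries.

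**Figure D2:**
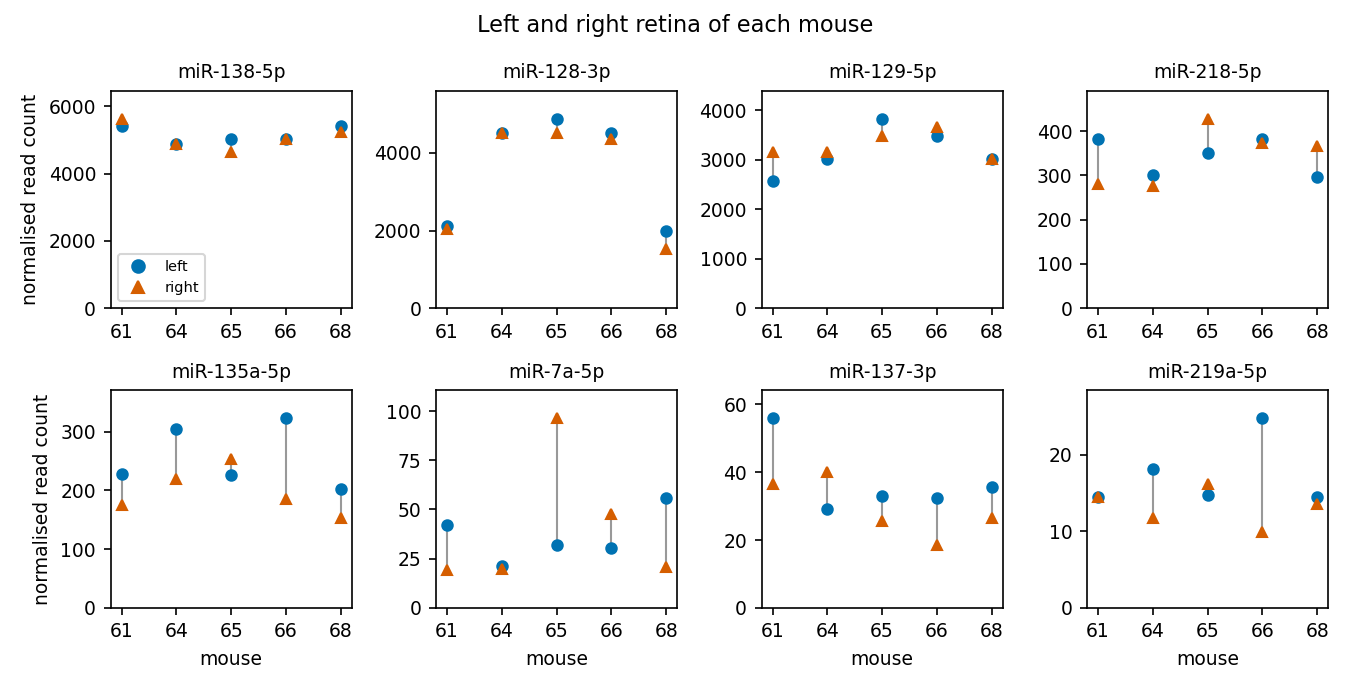
Normalised read count (linear axis from 0) of each miRNA by mouse, with circles for left and triangles for right retina joined by a line. For miR-128-3p both eyes of mice 61 and 68 were at 1535 to 2117 and both eyes of the other mice at 4352 to 4871, whereas for miR-7a-5p the eyes were furthest apart in mouse 65, at 32.1 and 96.2, and close in mouse 64.

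miR-138-5p, which restrains the size of dendritic spines in rat neurons, was the steadiest, with a coefficient of variation of 5.90%. It was at 5404 and 5627 normalised reads in the left and right retina of mouse 61, 4871 in both eyes of mouse 64, 5015 and 4642 in mouse 65, 5015 in both eyes of mouse 66, and 5404 and 5242 in mouse 68. Its rank ran from 59 to 64. Its log2 values correlated with those of miR-128-3p by -0.82 over the 10 libraries, which come in pairs from 5 mice. The mouse term of miR-138-5p had an adjusted p of 0.539 by limma.

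miR-129-5p, which takes part in the scaling of synapses in rat neurons, was at 2578 and 3169 in mouse 61, 3023 and 3169 in mouse 64, 3830 and 3480 in mouse 65, 3480 and 3671 in mouse 66, and 3023 in both eyes of mouse 68. The ranges of the left and right libraries overlapped, and the adjusted p of the mouse term was 0.402 by limma. Its coefficient of variation was 11.4%.

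miR-218-5p, abundant in motor neurons and hosted by introns of the axon guidance genes Slit2 and Slit3, was at 277 to 428 normalised reads. The left values were 382, 300, 350, 382 and 296 in mice 61, 64, 65, 66 and 68, and the right values 282, 277, 428, 373 and 366. Neither side was higher throughout, with the right value above the left in 2 of 5 mice.

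miR-135a-5p, which acts in axon growth of mouse neurons, had the smallest p of the group in the comparison of the eyes. Its left values were 228, 305, 226, 322 and 202 in mice 61, 64, 65, 66 and 68, and its right values 175, 219, 254, 186 and 153. The right retina was lower in 4 of 5 mice and higher in mouse 65, and the ranges of the sides overlapped. Left retinas averaged 257 ± 53.4 and right retinas 197 ± 39.6 normalised reads (SD, n = 5), a log2 fold change of -0.38 (SE 0.14) with a limma interval of -0.72 to -0.04. With limma it did not pass over all miRNAs, with an unadjusted p of 0.0341 and an adjusted p of 0.958. Without mouse 65 the log2 fold change was -0.51, and without mouse 66 it was -0.27.

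miR-7a-5p, a neuroendocrine miRNA bound by the circular RNA Cdr1as, varied most, with a coefficient of variation of 62.2%. The left values were 42.2, 21.3, 32.1, 30.4 and 55.8 in mice 61, 64, 65, 66 and 68, and the right values 19.4, 19.7, 96.2, 47.5 and 20.8. The eyes of mice 61 and 68 differed in the opposite direction from those of mice 65 and 66. Its residual SD of 0.86 on the log2 scale was the 15th largest of the 484 tested, whose median was 0.23. The right library of mouse 65, which held the highest value, is the one with high miR-184-3p, and the part of lens or cornea RNA in it was not tested.

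miR-137-3p, a regulator of neuronal maturation whose human locus is linked to schizophrenia, was at 55.8, 29.3, 33.0, 32.4 and 35.7 on the left and 36.6, 40.1, 25.6, 18.5 and 26.6 on the right in mice 61, 64, 65, 66 and 68. The right value was lower in 4 of 5 mice, and the sides overlapped. miR-219a-5p, known for driving the maturation of oligodendrocytes, was at 9.90 to 24.8, close to the lower limit for testing. Its opposite arm from the Mir219a-2 copy was at 0.310 to 5.77. miR-338-3p, also listed as an oligodendrocyte marker, was at 1148 to 1535, and neither it nor miR-219a-5p differed between eyes or mice at an adjusted p under 0.05 by limma.

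The right-left comparison asked whether the lens, worn on 1 side, left a left-right difference in the neuron-enriched miRNAs. None passed the test. By limma, 0 of the 8 were past an adjusted p of 0.05, where 0 of all 484 miRNAs (0%) were, and the smallest adjusted p among the 8 was 0.958. At an unadjusted p under 0.05 there was 1 of 8, miR-135a-5p, against 2.48% of all tested. Of the 8, 6 had a log2 fold change below 0, against 53.3% of all tested, and their median was -0.10 against -0.01. Across the 5 mice, 0 of 8 kept 1 direction, against 3.72% of all tested, where a difference of exactly 0 in a mouse also keeps a miRNA out.

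The intervals show what could have been seen. The limma 95% interval of miR-138-5p ran from -0.14 to 0.10 on the log2 scale, that of miR-129-5p from -0.12 to 0.24 and that of miR-128-3p from -0.30 to 0.06. For miR-218-5p it ran from -0.31 to 0.32, for miR-137-3p from -0.80 to 0.13 and for miR-219a-5p from -0.98 to 0.26. The interval of miR-7a-5p, -1.14 to 0.98, was the only one of the 8 that reached beyond a 2-fold difference, and 90.3% of all tested miRNAs had intervals within that bound. Without mouse 65, whose right library was high in miR-184-3p, the log2 fold change went from -0.08 to -0.49 for miR-7a-5p and from 0.06 to 0.11 for miR-129-5p. Without mouse 68, whose left library was high in miR-133a-3p, it went from -0.08 to 0.25 for miR-7a-5p and from -0.12 to -0.05 for miR-128-3p. If the lens was not on the same side in all mice, its effects would offset each other here. The p values rest on how much the difference between the eyes varied over these 5 animals, moderated across the tested miRNAs.

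**Figure D3:**
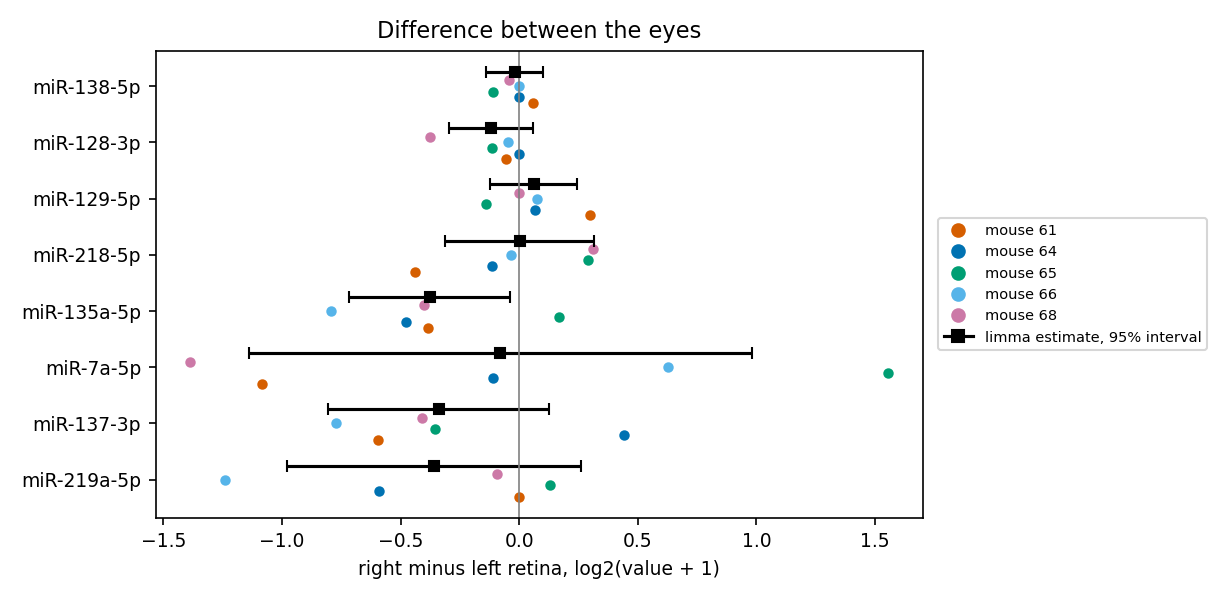
Right minus left retina on the log2(value + 1) scale for each miRNA, with a coloured point per mouse and a square with the limma estimate and its 95% interval. The interval is narrowest for miR-138-5p (-0.14 to 0.10) and widest for miR-7a-5p (-1.14 to 0.98), and that of miR-135a-5p (-0.72 to -0.04) lies below 0 before adjustment.

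Because the mature miRNAs of both copies are identical, the opposite arms were used to see which copy gave opposite-arm reads. These arms can differ in sequence and adapters may ligate them unequally, so the shares do not measure what each copy gave to the member. Copy 1 took most of the opposite-arm reads for miR-128 (at least 94.8% in every library), miR-138 (94.0% to 98.1%) and miR-218 (at least 93.8%). It also led for miR-219a (84.8% to 99.3%) and miR-7a (78.8% to 93.8%, from the intron of Hnrnpk). For miR-135a it was copy 2, in an intron of the long non-coding RNA Rmst, that led, and copy 1 took 1.25% to 7.23%. For miR-129 the copies were even, at 44.3% to 53.5%, and the values of miR-129-1-3p and miR-129-2-3p were identical in 6 of 10 libraries. How reads of near-identical arms were assigned is not given in the sources used here, so this pair is uncertain. The opposite arms of miR-218 differ at 1 aligned base and those of miR-138 at 2, so their shares carry the same limit.

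The arms that identify the copies are shown for miR-138, miR-7a and miR-135a, with capitals at bases that differ or have no partner in an ungapped alignment.
miR-138-1-3p, chr9:122682936-122682957: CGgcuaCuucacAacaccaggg
miR-138-2-3p, chr8:94324359-94324379: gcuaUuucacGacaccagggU
miR-7a-1-3p, chr13:58392800-58392821: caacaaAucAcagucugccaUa
miR-7a-2-3p, chr7:78888335-78888356: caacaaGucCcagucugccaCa
miR-135a-1-3p, chr9:106154179-106154200: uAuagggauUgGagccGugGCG
miR-135a-2-3p, chr10:92072104-92072124: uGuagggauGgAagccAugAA
The deposited table lists miR-138-5p at the Mir138-2 locus, while miR-138-2-3p was at 3.30 to 11.0 normalised reads and miR-138-1-3p at 117 to 184. It likewise lists miR-135a-5p at Mir135a-1 and miR-7a-5p at Mir7-2, the copies with fewer opposite-arm reads.

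**Figure D4:**
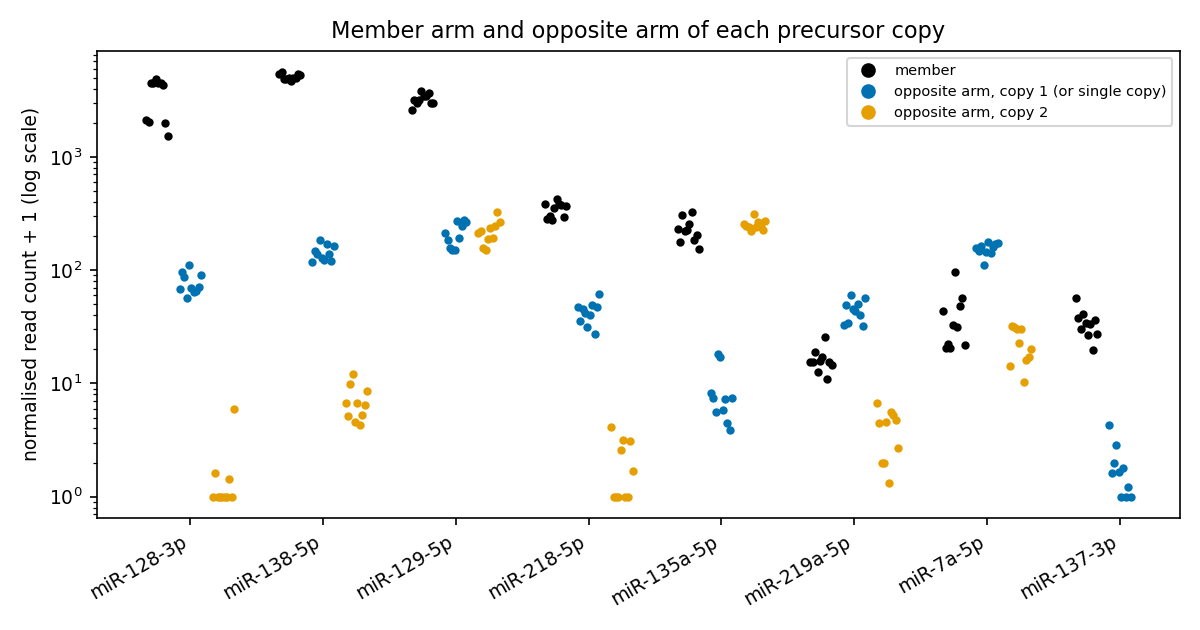
Normalised read count + 1 (log scale) of each member (black) and of the opposite arm of precursor copy 1 (blue) and copy 2 (orange), with a point per library. The member lies above both opposite arms for miR-128, miR-138, miR-129 and miR-218, while miR-219a-1-3p (31.4 to 59.5) and miR-7a-1-3p (109 to 175) lie above their members.

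The arm usually named as the guide was not the more abundant in every hairpin. miR-7a-1-3p was above miR-7a-5p in 10 of 10 libraries, with miR-7a-5p at 0.120 to 0.551 times its level. miR-219a-1-3p was above miR-219a-5p in 10 of 10, at 31.4 to 59.5. miR-135a-2-3p, at 221 to 312, was above miR-135a-5p in 7 of 10. By contrast miR-138-5p was 26.5 to 46.2 times as high as miR-138-1-3p, miR-129-5p 9.38 to 21.0 times as high as miR-129-2-3p and miR-218-5p 6.09 to 14.1 times as high as miR-218-1-3p. miR-137-5p did not exceed 3.30. These ratios compare sequences that adapters may ligate unequally.

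Ratios of arms, copies and relatives were compared between the eyes in 13 pairs by an exact two-sided sign-flip test, which with 5 mice cannot give a p below 0.063. The ratio of miR-7a-1-3p to miR-7a-2-3p had a lower right than left value in 5 of 5 mice, by 0.52 ± 0.45 (SD over mice) on the log2 scale, with an exact p of 0.063 and an adjusted p of 0.542. Without mouse 61 the difference was -0.33. The ratio of miR-219a-5p to miR-219a-1-3p was -0.73 ± 0.60 (SD over mice) on the right relative to the left, lower in 4 of 5 mice, with an exact p of 0.125. No pair could pass the threshold in this design.

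Relatives were measured beside 2 of the miRNAs. miR-7b-5p shares the seed of miR-7a-5p and differs from it at A10U, counted from the 5′ end of miR-7a-5p, beside an added last base.
miR-7b-5p, chr17:56243017-56243040, plus strand: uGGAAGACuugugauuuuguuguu
It was at 4.10 to 27.6 normalised reads and below miR-7a-5p in 10 of 10 libraries, and its highest value was again in the right retina of mouse 65. miR-135b-5p, the relative of miR-135a-5p hosted by an intron of Lemd1, was at 124 to 228. Its values were equal to those of miR-135a-5p in both libraries of mouse 61 and in the right library of mouse 68, and how reads were assigned between these relatives is not given. Antisense to the miR-219a hairpins, miR-219b-3p, miR-219c-5p and miR-219c-3p had means of 0.238, 0.581 and 3.06. The adjusted p of the eye difference was 0.971 for miR-135b-5p and 0.958 for miR-7b-5p by limma.

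The list of other neuronal miRNAs was tested in the same fit. All 12 were in the table and passed the filter, from miR-124-3p with a mean of 82241 to miR-134-5p with 207. By limma 0 of 12 differed between eyes and 0 of 12 between mice at an adjusted p under 0.05, where 8 of 484 did between mice. The right retina was higher for 3 of the 12 and lower for 9, and the median log2 fold change was -0.08. miR-132-3p and miR-9-5p, the former induced by neuronal activity, had mouse terms with adjusted p values of 0.271 and 0.210.

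The miRNAs most like each member were found by Pearson correlation of log2 values over the 10 libraries, which come in pairs from 5 mice and share a normalisation. For each member the 2 highest correlations with all other tested miRNAs were taken, a choice that by itself favours high values. miR-128-3p was most like miR-1964-3p (r = 0.99) and miR-329-5p (r = 0.97), both called between mice. miR-7a-5p was most like miR-30c-5p (r = 0.96) and miR-30b-5p (r = 0.94), and miR-218-5p most like miR-34b-5p (r = 0.96) and miR-496a-3p (r = 0.81). miR-138-5p was most like miR-26b-5p (r = 0.84) and miR-212-3p (r = 0.82), miR-129-5p most like miR-92a-3p (r = 0.88) and miR-375-3p (r = 0.88), and miR-137-3p most like miR-215-5p (r = 0.87) and miR-369-5p (r = 0.77). For miR-135a-5p they were miR-488-3p (r = 0.89) and miR-879-5p (r = 0.88), and for miR-219a-5p miR-330-5p (r = 0.87) and miR-148b-5p (r = 0.81). No member was among the 2 most like another member, where the members make up only 8 of the 484 tested miRNAs. Among the 28 pairs of members 16 correlations were above 0, as were 57629 of the 115921 pairs of tested miRNAs that had a defined correlation. The members' correlations had a median of 0.14 and a range from -0.82 (miR-128-3p and miR-138-5p) to 0.74 (miR-135a-5p and miR-219a-5p).

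**Figure D5:**
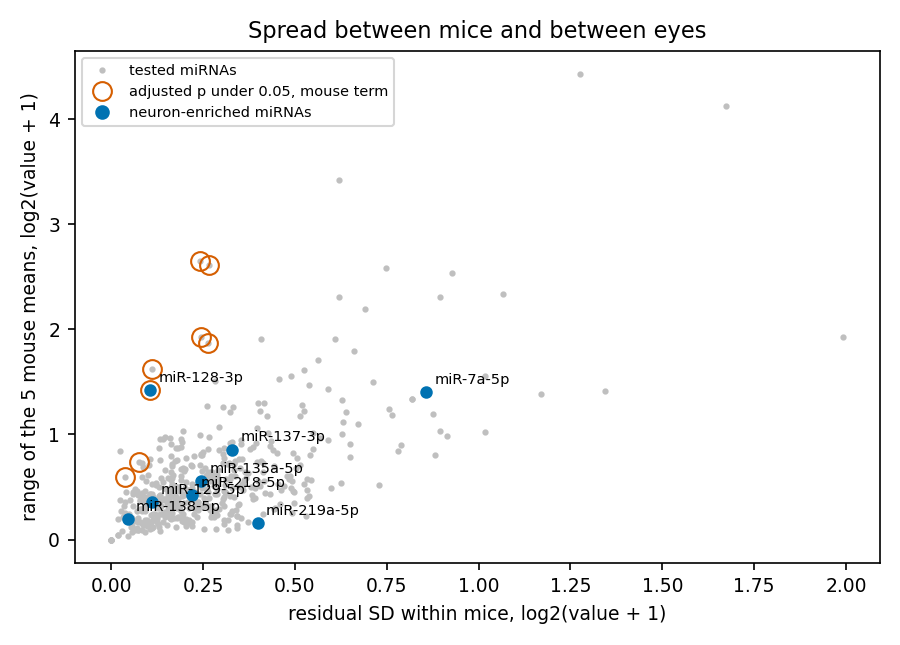
Range of the 5 mouse means against the residual SD within mice, both on the log2(value + 1) scale, for the 484 tested miRNAs (grey), the neuron-enriched miRNAs (blue) and those past an adjusted p of 0.05 for the mouse term (orange rings). miR-128-3p has a range of 1.42 at a residual SD of 0.11, whereas miR-7a-5p has a similar range of 1.40 at a residual SD of 0.86.

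The spread among the 8 thus took different forms. The range of mouse means had a median of 0.49 on the log2 scale over the 8, against 0.46 over all tested, and the residual SD had a median of 0.23 in both. miR-128-3p was the 28th and miR-7a-5p the 30th of 484 in the range of mouse means. Of the 8, miR-128-3p alone passed the test of the mouse term, and its residual SD within mice was 0.11 against 0.86 for miR-7a-5p.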

How the data were processed

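Per the labels, small RNA was extracted with a column kit and libraries were made from 50 ng with the TruSeq Small RNA kit. Per the submitters' processing notes, the tools were Partek and Bowtie and the builds GRCm38 and mm10, with no version named. The sources used here do not give the trimming, the annotation, the assignment of shared reads or the normalisation. The values deposited by the authors are a signal derived from read counts, called normalised counts in the table's name. In every library 347 ranks hold the same value, at least 162 of them at 0. The equal ranks above 0 are what quantile normalisation gives. No counting intervals are possible, since depth is unknown. The table held 0 columns of other samples.

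Testing was limited to the 484 of 1061 miRNAs whose mean over the 10 libraries reached 10, including all 8 members. The model, in limma 3.58.1 (R 4.3.3), was fitted to log2(value + 1) with terms for side and mouse and variances moderated along a trend. Folds of low miRNAs are understated on this scale. The eye difference and the mouse term (F test) were adjusted by Benjamini-Hochberg over all 484, two-sided for the eyes, at 0.05. Both retinas of a number come from 1 animal, which is the source of the pairing, and the deviations of paired libraries from the mean of their side correlated by 0.09 to 0.38 across miRNAs (median 0.16), against -0.34 to 0.35 (median -0.08) for libraries of different mice. Ratios were tested by exact sign flips over mice. The fit was tested on simulated data.

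Members and lists were chosen with earlier results of these data known. Named beside the members are the other arms of their hairpins, seed relatives, the 2 most correlated miRNAs for each member and a list of 12 other neuronal miRNAs. Sequences are RefSeq's in GRCm38.p6 and matched 8 of 8 members and 27 of the 30 member, arm and relative rows, and host genes are GENCODE's for GRCm38. Alternatives were the pseudocount, the filter, the trend, the block, median-ratio scaling and leaving out each mouse.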

Additional observations from a re-analysis of the deposited data

Results flagged for a closer look

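A total of 3 values of 5 libraries a side stood apart from the others by Dixon's test at its 95% critical value for 5 samples, 0.71, in 40 groups of values examined (20 miRNAs, 2 sides), where chance flags about 1 in 20. In normalised reads, miR-137-3p stood at 55.8 in mouse 61 on the left and at 29.3 to 35.7 in the other left retinas. miR-218-1-3p, the opposite arm of miR-218, was at 30.8 in the left retina of mouse 65 and at 44.6 to 48.7 in the other left retinas. miR-7b-5p was at 27.6 in the right retina of mouse 65, which also held the highest miR-7a-5p, and at 4.10 to 10.7 in the other right retinas.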

How the results depend on the processing

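The count of miRNAs and of members that differed between eyes was 0 under every alternative run, including the fit with no replicate block, which gave 0 calls and 13 miRNAs at an unadjusted p under 0.05, against 12 with mouse as a block and 62 without mouse 65. Between mice, miRNAs called numbered 10 with median-ratio scaling, 5 with no trend, 3 to 7 when each mouse was left out, and 0 in mice 64, 65 and 66 alone, a subset added after the data were seen, where 0 members were called and miR-128-3p had an adjusted p of 0.923 by limma. These are the mice on the high side of the split in miR-128-3p, so that loss follows from their choice and says nothing of stability. The mouse term needs the block, so it has no test without it. In all other settings miR-128-3p was the 1 member called. Leaving out each mouse gave log2 fold changes on both sides of 0 for miR-138-5p (-0.039 to 0.0035), miR-218-5p (-0.075 to 0.11), miR-7a-5p (-0.49 to 0.25), miR-128-1-5p (-0.23 to 0.065), miR-218-1-3p (-0.26 to 0.047), miR-7a-1-3p (-0.12 to 0.10), miR-135b-5p (-0.038 to 0.25) and miR-135b-3p (-0.23 to 0.20), none of them called. The same held for the right-minus-left log2 ratios of miR-128-3p to miR-128-1-5p (-0.20 to 0.14), miR-129-5p to miR-129-1-3p (-0.27 to 0.10) and to miR-129-2-3p (-0.097 to 0.091), miR-218-5p to miR-218-1-3p (-0.036 to 0.19), miR-7a-5p to miR-7a-1-3p (-0.37 to 0.30) and miR-129-1-3p to miR-129-2-3p (-0.0076 to 0.19). In mice 64, 65 and 66 alone the sign changed for miR-7a-5p (0.69), miR-7b-5p (0.27) and the ratios of miR-128-3p to miR-128-1-5p (0.36) and of miR-7a-5p to miR-7a-1-3p (0.73) and to miR-7a-2-3p (0.37). With a pseudocount of 10 the ratio of miR-7a-5p to miR-7a-1-3p was 0.0034. The cause was not tested. The depth is unknown, so counting error could not be separated from the spread between libraries.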

Other observations

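Beside miR-128-3p, 7 miRNAs differed between mice at an adjusted p under 0.05 by limma's F test. miR-26b-5p was at 76000 to 81300 normalised reads in mice 61 and 68 and at 51974 to 57479 in mice 64, 65 and 66. miR-1964-3p was at 8.47 to 12.8 against 55 to 79.3, with the largest range of mouse means on the log2 scale among the 8, and miR-671-5p at 3.50 to 10.1 against 22.5 to 39.5. miR-322-3p was at 44.2 to 59.5 against 120 to 181, miR-329-5p at 42.2 to 67.8 against 134 to 194, and miR-296-3p at 47.5 to 86.5 against 109 to 205. For miR-99a-5p the ranges overlapped, with 2699 to 3023 in mice 61 and 68 and 1753 to 2820 in the others. Its mouse means were 2664 in mouse 64, 1777 in mouse 65 and 1753 in mouse 66. The split into these mice was read from the values of miR-128-3p, so the ranges are given with no test. GC contents of the 8 called miRNAs ran from 33.3% (miR-26b-5p) to 69.6% (miR-671-5p). The trend of log2 values with GC content, per 10 points, was -0.15 and 0.04 in the left and right library of mouse 61 and -0.03 and 0.01 in those of mouse 68, and its sign differed between the eyes in all 5 mice.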
